A study of Homo sapiens with 26 samples.

Results

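Small nucleolar RNA host genes carry small nucleolar RNAs (snoRNAs), the guides that direct chemical modification of ribosomal and spliceosomal RNA, inside their introns. Splicing releases the introns, from which the snoRNAs are trimmed, and leaves a spliced exonic RNA with no conserved protein-coding frame. Many of these exonic RNAs reach the cytoplasm, are engaged by ribosomes on short open reading frames and are then degraded by nonsense-mediated decay, so that their levels are known to rise when translation or decay is blocked. Several of them, like the mRNAs of ribosomal proteins, begin with an uninterrupted run of pyrimidines, the 5′ terminal oligopyrimidine (TOP) motif.

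The members were all genes whose symbol is SNHG followed by a number, together with GAS5, EPB41L4A-AS1 and ZFAS1, with at least 50 counts summed over the 26 libraries. Of 31 genes with such a symbol, 27 passed, out of 63086 genes in the count tables. The genes below the minimum were SNHG14, SNHG18, SNHG22 and SNHG27. All 27 members were annotated as long non-coding RNA genes. SNHG31 was too low for the test across genes, which left 26 tested members among 12793 tested genes.

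The libraries came from HCT116, a human colorectal carcinoma cell line carrying Tet-OsTIR1, an inducible plant-derived receptor. In the 4 cell populations of the main design the paralogs IGF2BP2 and IGF2BP3 had been knocked out and mCherry-tagged IGF2BP1, an RNA-binding protein of ribonucleoprotein granules, was expressed from a lentivirus as wild type (WT), as the phosphomimetic mutants S181E or Y396E, or as RQ, in which R167Q, R168Q, R174Q and R178Q replace arginines of the first linker. Each population was collected after PBS (control) or after 500 µM sodium arsenite for 2 h, an oxidative stress that arrests translation, with 3 libraries in each of the 8 groups. Parental HCT116 cells gave 1 library per treatment and entered no test. The populations were sorted by fluorescence into a narrow gate after transduction, the paralog knockouts were made in single-cell clones, and each mutant is represented by 1 sorted population, so that a mutant and the history of its population cannot be told apart.

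Polyadenylated RNA was read as single-end directional libraries, with 22508145 to 50834401 counts per library, of which the members took 0.248 to 0.404%. The epithelial markers EPCAM, CDH1, KRT8, KRT18 and KRT19 were present in every library, with EPCAM at 290 to 457 CPM (counts scaled to the library total), while VIL1 stayed at or below 0.212 CPM. PTPRC, CD3E, PECAM1, ALB and HBB stayed at or below 0.259 CPM, and COL1A1 was at 6.15 to 10.7 CPM. IGF2BP1 RNA was at 8.27 to 46.3 CPM in the transduced populations and at 0.315 and 0.658 CPM in parental control and arsenite cells. In control libraries it was at 8.27 to 12.8 CPM in WT and 9.304 to 13.0035 CPM in RQ. Those of S181E held 16.8 to 20.2 CPM and those of Y396E 14.1 to 17.1 CPM. After arsenite it was at 27.5 to 30.1 CPM in WT and 43.9 to 46.3 CPM in RQ. The arsenite libraries of S181E held 43.98 to 45.1 CPM and those of Y396E 42.7 to 45.2 CPM. The part of these levels in the differences between populations was not tested. IGF2BP2 RNA was at 62.4 to 89.3 CPM against 110 and 154 CPM in parental cells, and IGF2BP3 RNA was at 91.6 to 160 CPM against 83.7 and 112 CPM, so the edited genes were still transcribed and the counts do not read the knockout itself. The third Y396E arsenite library stood apart with 13897 genes detected against 20850 to 23473 in the other 25, and results that rest on it are given with and without it. Mitochondrial genes took 21.1 to 27.9% of counts in WT and RQ control libraries, 11.7 to 17.1% in S181E and Y396E control libraries and 7.5 to 13.5% in the arsenite libraries of the 4 populations, and the part of this shift in the differences between populations was not tested.

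The annotated starts of these RNAs show which of them carry the pyrimidine run that they share with ribosomal protein mRNAs. In RefSeq start sites (GRCh38.p14), found for 23 members, 8 (34.8%) opened at their first base with a C followed by at least 3 further pyrimidines, read on the transcribed strand only. The same opening was found in 57.6% of 85 start sites of cytosolic ribosomal protein genes and in 5.5% of the 35116 start sites that were read. The members with it were SNHG4, SNHG5, SNHG7, SNHG12, SNHG19, SNHG26, SNHG32 and ZFAS1. No start site was found for SNHG9, SNHG15 and SNHG25, and SNHG6 was left out of the reading together with its whole chromosome. Given here are the first 30 bases from the RefSeq start of members whose arsenite values are described next, with the opening run in capitals.
SNHG12 (chr1:28581844-28581873, minus strand): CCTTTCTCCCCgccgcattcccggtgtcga
SNHG4 (chr5:139274101-139274130, plus strand): CCCTTTCCCCTCCggcctctgccggtgctg
ZFAS1 (chr20:49278642-49278671, plus strand): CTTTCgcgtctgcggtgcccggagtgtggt
SNHG5 (chr6:85678704-85678733, minus strand): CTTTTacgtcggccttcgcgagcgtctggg
SNHG26 (chr7:22854240-22854269, plus strand): CTCCgcagtgccctcccttttcggccgcgg
SNHG3 (chr1:28505943-28505972, plus strand): gattctctaactgcgcatgcttctgcgcac
SNHG10 (chr14:95534843-95534872, minus strand): agcctcatcctactgccttactattggtcg
SNHG17 (chr20:38435299-38435328, minus strand): agtccttcgccgtccctcgccgtccttcgc
EPB41L4A-AS1 (chr5:112160526-112160555, plus strand): tgtcgggtcccaaaatacgtggtctaaagt

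The annotated start differs between catalogues for several members, and 15 of the 23 RefSeq starts lay within 60 bases of the outer end of the gene in the count tables. GAS5 and SNHG29 showed no opening run at their RefSeq start, but 50 of 91 GAS5 transcripts and 30 of 62 SNHG29 transcripts of GENCODE 44 opened with it, against 3.9% of all 252835 transcripts. Conversely, SNHG19 and SNHG32 carried the run at their RefSeq start and in 0 of 2 and 0 of 10 GENCODE transcripts. The run also opened 5 of 9 GENCODE transcripts of EPB41L4A-AS1, 1 of 3 of SNHG3 and 5 of 118 of SNHG17. None of these genes carried it at the RefSeq start. The canonical transcripts of SNHG4, SNHG5 and SNHG26 lacked it. Of all their transcripts 4 of 9, 3 of 89 and 12 of 22 opened with it. The canonical transcripts of GAS5 and SNHG29 are given because they are the most abundant members described here with the run in only 1 catalogue.
GAS5 (chr1:173867960-173867989, minus strand): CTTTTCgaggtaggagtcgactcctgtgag
SNHG29 (chr17:16439037-16439060, plus strand): CTTTTCattcccgttgttatggag
Among the 22 tested members with a RefSeq start, the median log2 change with arsenite in WT cells was -0.53 for the 8 that opened with the run and -0.76 for the 14 that did not. Both subsets held members that fell and members that rose, and these medians are a description of few genes.

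The members covered a wide range of levels. By length, SNHG29, host of SNORD49A, SNORD49B and SNORD65, was the highest in WT control cells at 294 ± 28.5 CPM per kilobase of exon (RPKM; SD, n = 3). SNHG6, host of SNORD87, followed at 193 ± 15.8 RPKM, and GAS5, host of 11 snoRNAs in RefSeq and the best known member for control by translation-coupled decay, at 110 ± 13.7 RPKM. SNHG16 at 84.9 ± 8.92 RPKM and SNHG19 at 83.4 ± 21.3 RPKM did not differ beyond their spread. The other tested members lay between 0.23 RPKM for SNHG28 and 66.8 RPKM for SNHG1, and the untested SNHG31 was at 0.37 RPKM. Exons covered 94.5% of the annotated span of SNHG1, 98.0% of SNHG11, 93.3% of SNHG8 and the whole span of SNHG9 and SNHG19, so that counts over exons there also include unspliced RNA. Reads in exon stretches shared with another gene on the same strand were assigned to neither gene, which removes most from SNHG25 (43.4% of its exon bases) and SNHG32 (35.2%).

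**Figure D1:**
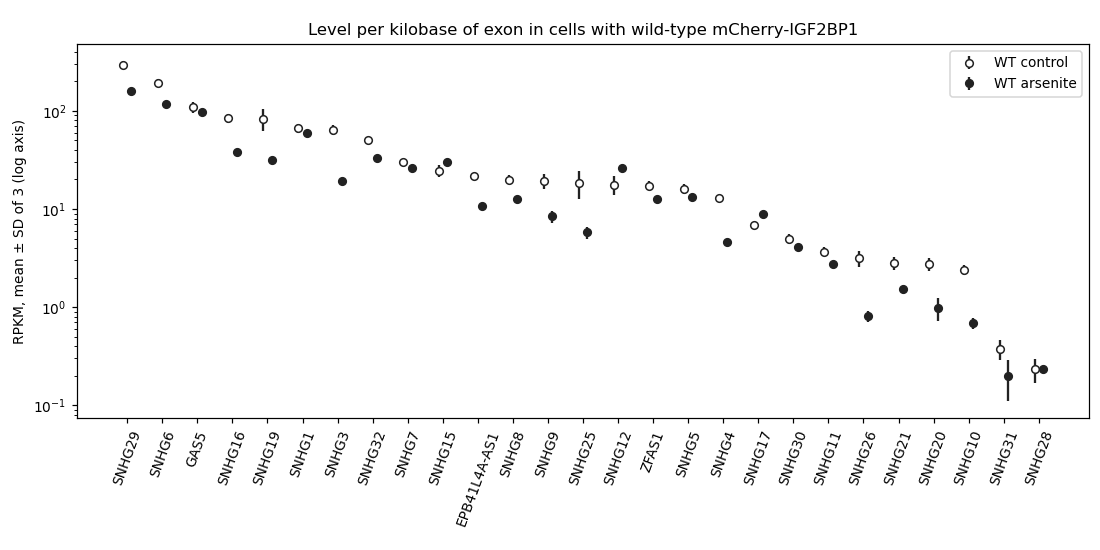
Level per kilobase of exon (RPKM, log axis) of the 27 members in WT cells, as mean ± SD of 3 control libraries (open) and 3 arsenite libraries (filled), in order of the control level. SNHG29 is highest at 294 RPKM and SNHG28 lowest at 0.23 RPKM, and the filled points lie below the open ones for most members.

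Arsenite lowered most members in WT cells. Summed over the 27 members, the normalised level was 3887, 4647 and 3993 CPM in the 3 WT control libraries and 2659, 2747 and 2705 CPM after arsenite, with the second control library the highest of them. Of 26 tested members, 17 fell and 3 rose past an adjusted p of 0.05 and a fold of 1.2 (edgeR quasi-likelihood test, Benjamini-Hochberg over all genes), and 6 did not pass. In the same comparison 64.2% of all genes were called, 31.5% lower and 32.7% higher, against 76.9% of the members called, 65.4% lower and 11.5% higher. The median log2 change of the members was -0.68, beside -0.02 over all tested genes. Fewer RNA molecules per cell and a smaller share of the RNA pool cannot be told apart in these libraries.

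The largest fall was that of SNHG26, the host of SNORD93, a snoRNA of the box C/D class that guides 2′-O-methylation. Its level was 15.5, 14.6 and 20.2 CPM in WT control libraries and 3.70, 4.51 and 4.81 CPM after arsenite. The groups lie far apart, and the fitted log2 change was -1.94 ± 0.14 (SE, n = 3 per group; edgeR adjusted p = 1.04e-11). SNHG10, which hosts SCARNA13, a guide RNA of the Cajal body, was at 10.8, 12.6 and 9.95 CPM in control and 3.52, 3.21 and 2.76 CPM after arsenite. Its log2 change was -1.82 ± 0.23 (edgeR adjusted p = 2.12e-07). SNHG3 hosts SNORA73A and SNORA73B, abundant snoRNAs of the box H/ACA class, which mostly guide pseudouridylation. It was far more abundant and fell from 127, 158 and 139 CPM to 42.8, 40.9 and 43.4 CPM, a log2 change of -1.74 ± 0.09 (edgeR adjusted p = 6.88e-14).

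Other members fell less steeply. SNHG25, SNHG4, SNHG20 and SNHG19 fell by 1.67, 1.48, 1.47 and 1.39 on the log2 scale, SNHG9 and SNHG16 by 1.19 and 1.16. SNHG29, SNHG21, SNHG6, SNHG8, SNHG32 and SNHG11 fell by 0.43 to 0.87 on the log2 scale. EPB41L4A-AS1, an antisense transcript that hosts SNORA13, was at 71.6, 80.1 and 77.5 CPM in control and 37.0, 40.1 and 36.8 CPM after arsenite, a log2 change of -1.01 ± 0.06 (edgeR adjusted p = 2.06e-12). ZFAS1, which hosts SNORD12, SNORD12B and SNORD12C, changed from 126, 149 and 125 CPM to 99.8, 96.3 and 97.3 CPM. Its log2 change of -0.45 ± 0.09 (edgeR adjusted p = 1.43e-04) passed, but with library totals alone as the scale it was -0.21 and no longer passed the fold of 1.2.

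GAS5 stood apart from this trend. It measured 398, 496 and 407 CPM in WT control libraries and 383, 406 and 378 CPM after arsenite, and the groups overlap. The log2 change of -0.15 ± 0.07 missed the threshold (edgeR adjusted p = 0.0514), with a 95% interval from -0.30 to -0.01. SNHG1, SNHG5, SNHG7, SNHG28 and SNHG30 were also not called in WT cells, at log2 changes of -0.17, -0.26, -0.21, 0.01 and -0.29. SNHG5, the host of SNORD50A and SNORD50B, was at 130, 159 and 132 CPM in control and 113, 123 and 115 CPM after arsenite, just short of the fold of 1.2.

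The members that rose with arsenite were few, and SNHG12 rose most. SNHG12 hosts SNORA16A, SNORA44, SNORA61 and SNORD99. Its level was 38.8, 56.4 and 40.4 CPM in WT control libraries and 67.3, 66.6 and 67.7 CPM after arsenite, a log2 change of 0.58 ± 0.09 (edgeR adjusted p = 4.43e-06). SNHG17, the host of SNORA71 copies, rose from 55.7, 58.2 and 55.9 CPM to 76.6, 72.4 and 75.0 CPM, by 0.40 ± 0.05 on the log2 scale (edgeR adjusted p = 1.96e-07). SNHG15, which hosts SNORA9, was at 67.1, 85.4 and 70.5 CPM and then at 88.8, 88.9 and 94.0 CPM. Its log2 change was 0.29 ± 0.08 (edgeR adjusted p = 0.00204). That call was lost without WT control library 1 or 3 or arsenite library 3, where the log2 change was 0.22, 0.25 and 0.26.

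Members that lie close together in the genome moved together in some cases and not in others. SNHG9 (chr16:1964895-1965509) and SNHG19 (chr16:2154792-2155405) both fell, as did SNHG16 (chr17:76557766-76670985) and SNHG20 (chr17:77087710-77099506). With 17 of 26 tested members lower in WT cells, these pairs are not set apart from other pairs, and they lie further apart than those given next. SNHG3 (chr1:28505980-28510892) and SNHG12 (chr1:28578538-28582986) are on opposite strands of the same stretch of chromosome 1, and the former fell while the latter rose. SNHG17 (chr20:38419638-38435381) and SNHG11 (chr20:38446672-38450940) are likewise neighbours on opposite strands, and SNHG17 rose while SNHG11 fell by 0.43 on the log2 scale. The members were also grouped by the class of the hosted snoRNAs. The median log2 change in WT cells was -0.66 for the 10 hosts of box C/D snoRNAs alone and -0.65 for the 9 tested hosts of box H/ACA snoRNAs alone. It was -0.15 for the 3 hosts of both classes and -1.17 for the 4 that host a Cajal body RNA or an RNA without a class name, each a median over few genes.

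**Figure D2:**
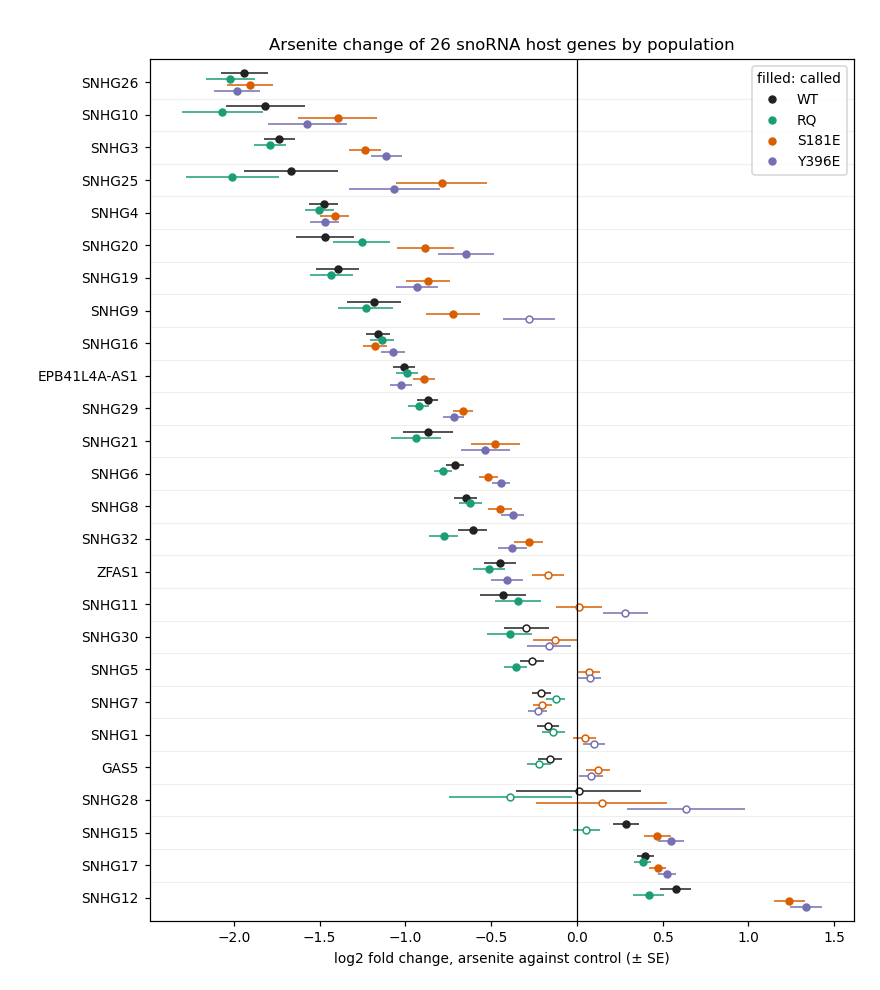
Log2 fold change with arsenite (x axis, ± SE) of the 26 tested members in the 4 populations, in the order of the change in WT cells. Filled points passed the test and the fold of 1.2. SNHG26 lies near -1.9 to -2.0 in every population, while SNHG12 lies at 0.58 in WT and at 1.24 and 1.34 in S181E and Y396E.

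The fall was seen in the mutant populations too. Arsenite lowered 19 members and raised 2 in RQ cells, where 65.4% of all genes were called (32.3% lower and 33.1% higher), and the median log2 change was -0.78. In S181E cells 15 members fell and 3 rose, with 57.1% of all genes called (26.5% lower and 30.6% higher) and a median of -0.46. In Y396E cells 15 fell and 3 rose, with 59.9% of all genes called (28.6% lower and 31.3% higher) and a median of -0.39. The medians over all tested genes were -0.02, 0.01 and -0.01. Across the 4 populations 14 members fell in each of them, namely SNHG3, SNHG4, SNHG6, SNHG8, SNHG10, SNHG16, SNHG19, SNHG20, SNHG21, SNHG25, SNHG26, SNHG29, SNHG32 and EPB41L4A-AS1. SNHG12 and SNHG17 rose in all 4, SNHG15 in all but RQ. The share of all genes called in the same direction in all 4 populations was not counted, so these numbers stand without a background. SNHG5, SNHG9, SNHG11, SNHG30 and ZFAS1 fell in 1 to 3 populations, and SNHG1, SNHG7, SNHG28 and GAS5 were called in none.

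Some of these calls rested on single libraries. Without the third Y396E arsenite library ZFAS1 and SNHG32 no longer passed the fold of 1.2 in Y396E cells, at -0.26 and -0.25, and SNHG9 was called lower at -0.44. SNHG25 was lost in S181E without arsenite library 3 (-0.61) and SNHG32 without control library 3 (-0.24). In RQ cells SNHG11 was lost without control library 1 or 2 or arsenite library 1 or 3 (-0.33 to -0.27), and SNHG30 without control library 3 or arsenite library 2 (-0.27 and -0.31).

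On the normalised scale the populations differed more in their control level than in their level after arsenite, as the sum of the members shows. In control libraries the sum was 4176 ± 412 CPM for WT and 4539 ± 282 CPM for RQ, against 3560 ± 34.5 CPM for S181E and 3691 ± 125 CPM for Y396E (mean ± SD, n = 3). After arsenite it was 2704 ± 44.05 CPM for WT and 2843 ± 67.7 CPM for RQ, against 2690 ± 54.4 CPM for S181E and 2779 ± 87.7 CPM for Y396E. The control libraries of WT and RQ were all above those of S181E and Y396E, and after arsenite the ranges of WT, S181E and Y396E overlapped. This pattern depended on the scale. With library totals alone the control sums overlapped, at 3483, 3900 and 3718 CPM in WT and 3602.5, 3703 and 3761 CPM in S181E. Those of Y396E were 3781, 3709 and 3769 CPM. After arsenite they were 2785, 2848 and 2863 CPM in WT and higher, at 2978, 3033 and 2954 CPM, in Y396E. SNHG29 makes up a large part of the normalised sum, at 1520, 1814 and 1563 CPM in WT control libraries, 1393, 1407 and 1392 CPM in S181E and 1491, 1431 and 1448 CPM in Y396E. The parental libraries held 3169 CPM in control and 2333 CPM after arsenite.

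**Figure D3:**
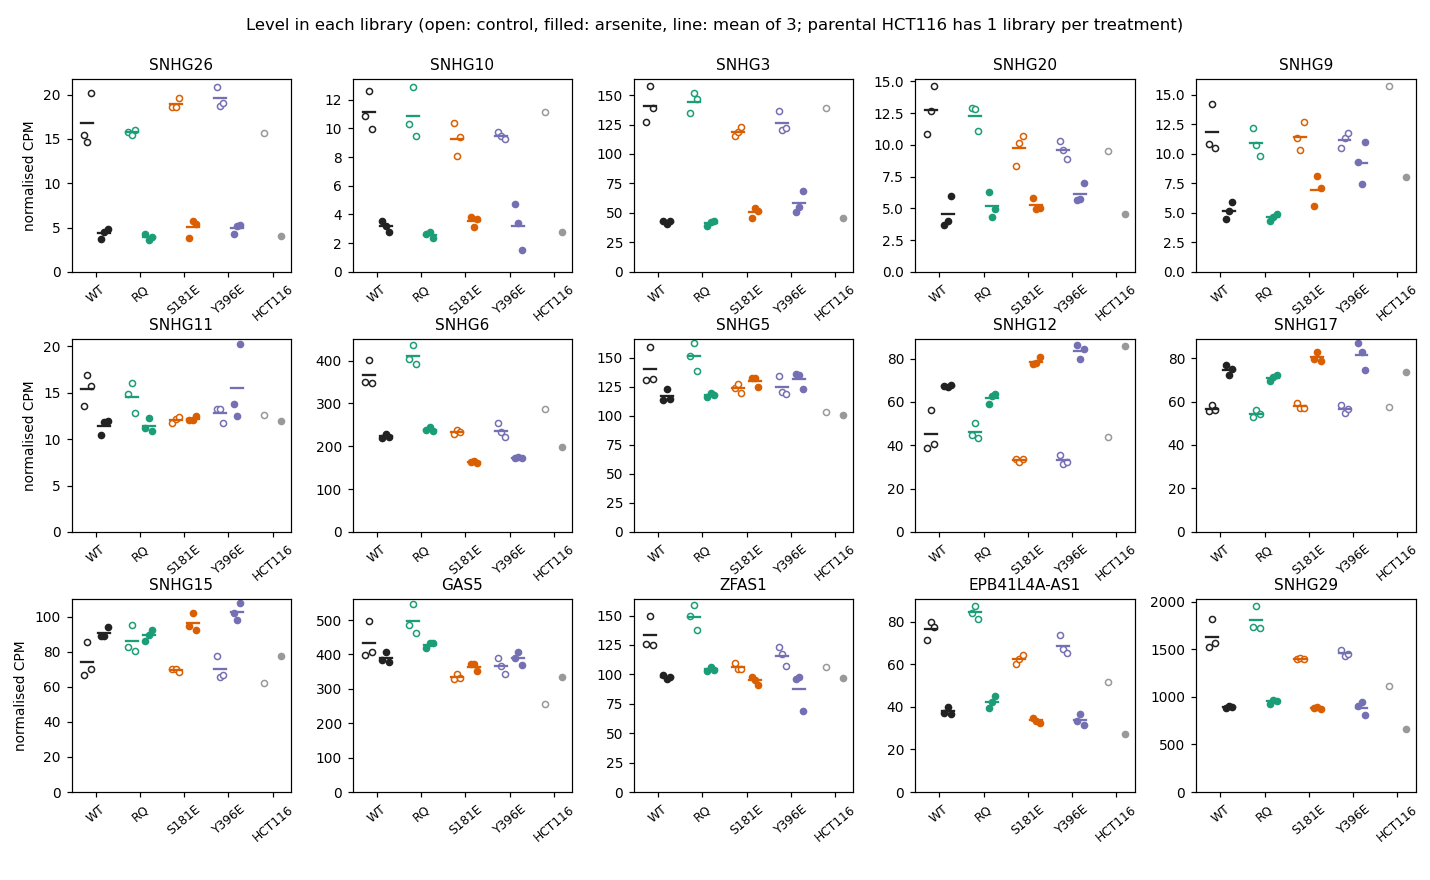
Normalised CPM (y axis) of 15 members in every library, by population, with open points for control, filled points for arsenite and a line at the mean of 3; parental HCT116 has 1 library per treatment. SNHG12 rises to about 80 CPM in S181E and Y396E from about 33 CPM, GAS5 stays within 328 to 546 CPM in the transduced populations, and the second WT control library is the highest of its group for several members.

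Next, the arsenite responses were compared between each mutant and WT as a difference of log2 changes. A positive difference is a smaller fall or a larger rise in the mutant. The 3 comparisons share the WT libraries and are therefore not independent of each other. In RQ cells 0 of 26 members differed by edgeR, with 0.109% of all genes called, 1 member at an unadjusted p under 0.05 and 0 by DESeq2. The difference of SNHG12 in RQ was -0.16, with a 95% interval from -0.42 to 0.11, and that of SNHG3 was -0.05, with an interval from -0.32 to 0.21.

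The responses of S181E and Y396E differed from WT in a few members, each time in the positive direction. In S181E cells 3 members were called (SNHG3, SNHG5 and SNHG12), or 11.5%, where 10.2% of all genes were called, 5.11% positive and 5.07% negative. In Y396E cells 7 were called (SNHG3, SNHG5, SNHG6, SNHG9, SNHG11, SNHG12 and SNHG20), or 26.9%, where 14.5% of all genes were called, 7.45% positive and 7.04% negative. The share in S181E is thus close to the background. The median difference over the members was 0.25 in S181E and 0.27 in Y396E, beside 0.01 and -0.01 over all tested genes. Some other lists shifted the same way. The median was 0.20 in both mutants for the ribosomal protein genes (10 and 18 called, all positive). For the other long non-coding RNAs it was 0.16 and 0.10 (15 positive and 1 negative, then 36 and 3). Further lists shifted the opposite way. Protein-coding snoRNA hosts other than ribosomal protein genes had medians of -0.10 and -0.12 (5 positive and 21 negative, then 3 and 22). Genes of the snoRNA particle proteins had -0.10 and -0.15, and decay and exon junction factors -0.16 and -0.15. The mRNAs known as decay targets had 0.02 and -0.01. The fitted difference was above 0 for 25 of 26 members in S181E and for 23 in Y396E, against 51.8% and 48.5% of all genes.

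The scale matters for this shift. With library totals alone, without the trimmed-mean (TMM) scaling, the median of the members was 0.06 in S181E and 0.11 in Y396E. That of all genes was -0.17 in both, so the members stayed above it. The calls were 1 and 4, all positive, where 18.9% and 20.5% of all genes were called in either direction. Neither share of members exceeded that background, which is not split by direction here. The scale thus moved the members and all genes together. Leaving out the third Y396E arsenite library raised the calls to 10 in S181E and 12 in Y396E, where 18.0% of all genes were called in each. Leaving out WT control library 1, 2 or 3 gave 5, 1 and 5 calls in S181E, with 10.4%, 5.06% and 13.6% of all genes called. In Y396E the calls were 12 without WT control library 1, 4 without WT arsenite library 1 and 4 without Y396E control library 3, where 9.1% to 14.3% of all genes were called.

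SNHG12 showed the clearest difference. Its level rose from 33.6, 32.5 and 33.7 CPM to 77.3, 77.7 and 80.6 CPM in S181E cells and from 35.3, 31.5 and 32.3 CPM to 86.2, 79.8 and 84.3 CPM in Y396E cells. Its normalised control level in both mutants lay below all WT control libraries, and its arsenite level above all WT arsenite libraries. With library totals alone the control libraries of both mutants overlapped those of WT. The response exceeded that of WT by 0.66 ± 0.13 in S181E (edgeR adjusted p = 0.00247) and by 0.76 ± 0.13 in Y396E (edgeR adjusted p = 5.74e-04). Without the second WT control library, in which SNHG12 was at 56.4 CPM, the differences were 0.48 and 0.57 and both were still called. They were also called with library totals alone, at 0.47 and 0.60. In RQ cells SNHG12 went from 44.9, 50.5 and 43.4 CPM to 59.2, 62.7 and 63.4 CPM.

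SNHG3 fell in every population, but less in the phosphomimetic mutants. In S181E cells it went from 115, 118 and 123 CPM to 45.4, 54.0 and 51.7 CPM, and in Y396E cells from 136, 120 and 122 CPM to 50.8, 55.2 and 68.8 CPM. The arsenite libraries of both mutants lay above the WT arsenite libraries. The difference was 0.50 ± 0.13 in S181E (edgeR adjusted p = 0.0145) and 0.62 ± 0.13 in Y396E (edgeR adjusted p = 0.00265). Without WT control library 2 it was 0.41 in S181E and no longer called (edgeR adjusted p = 0.0572), nor was it with library totals alone (0.31). Without the third Y396E arsenite library it was 0.50 in Y396E and called.

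For SNHG5 the treatments differed little within S181E and Y396E cells. In RQ its fall was called at -0.36 on the log2 scale, and in WT it missed the fold of 1.2 at -0.26. Its level was 124, 127 and 120 CPM in control and 132, 132 and 124 CPM after arsenite in S181E cells, and 134, 121 and 119 CPM against 136, 135 and 123 CPM in Y396E cells. In both mutants the treatment groups overlapped. The difference from WT was 0.33 ± 0.10 in S181E (edgeR adjusted p = 0.0301) and 0.33 ± 0.10 in Y396E (edgeR adjusted p = 0.0217). These were the least stable of the differences. The call in S181E was lost on leaving out any of 8 libraries, at 0.23 to 0.33, and that in Y396E any of 5, at 0.24 to 0.32. With library totals alone both calls were lost as well, at 0.14 and 0.17.

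Of the members called in Y396E alone with all libraries, SNHG9, a short host of SNORA78, differed most. Its WT level went from 10.8, 14.3 and 10.5 CPM to 4.44, 5.19 and 5.90 CPM, and its Y396E level from 10.5, 11.3 and 11.8 CPM to 9.27, 7.42 and 11.03 CPM. The Y396E groups overlap through the third arsenite library alone, and the difference from WT was 0.90 ± 0.22 (edgeR adjusted p = 0.00759) with that library and 0.74 without it, where it was still called. In S181E cells it went from 11.3, 10.3 and 12.7 CPM to 5.60, 8.08 and 7.08 CPM, a difference of 0.46 ± 0.22 that was not called (edgeR adjusted p = 0.188).

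SNHG20, which hosts SCARNA16, went from 10.9, 12.6 and 14.6 CPM to 3.70, 4.02 and 5.95 CPM in WT cells. In Y396E cells it went from 10.3, 9.60 and 8.88 CPM to 5.64, 5.70 and 7.03 CPM, and the difference was 0.82 ± 0.23 (edgeR adjusted p = 0.0191). Its Y396E control libraries were all below the WT control libraries, and its call was lost without WT arsenite library 1 or 2 (0.71 and 0.73) or Y396E control library 3 (0.77), and with library totals alone (0.67). SNHG11, the host of SNORA60 and SNORA71E, was at 13.6, 17.0 and 15.8 CPM in WT control and 10.4, 11.8 and 12.003 CPM in WT arsenite libraries. In Y396E cells it was at 13.3, 13.2 and 11.8 CPM and then at 13.8, 12.4 and 20.3 CPM, the last in the library that stood apart. The difference was 0.71 ± 0.19 (edgeR adjusted p = 0.0127) with that library and 0.47 without it, where it was still called. Without that library SNHG11 and SNHG20 were also called in S181E, with differences of 0.44 and 0.58. With only the groups compared in the fit, SNHG11 was called in S181E (0.44). Under that setting SNHG11 (0.71) and SNHG20 (0.83) were no longer called in Y396E. Whether a call in Y396E and none in S181E reflects a difference between the mutants was not tested.

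**Figure D4:**
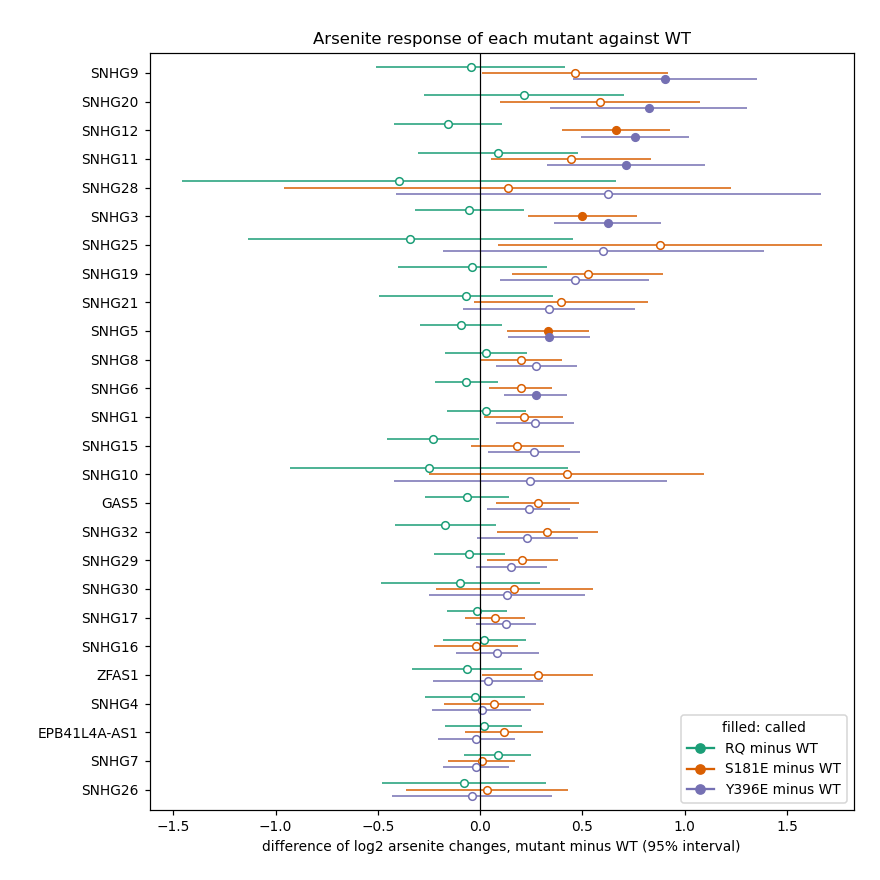
Difference between the log2 arsenite change in each mutant and that in WT (x axis, bars are 95% intervals) for the 26 tested members, ordered by the Y396E value; filled points were called. SNHG9, SNHG20, SNHG12 and SNHG11 lead in Y396E at 0.71 to 0.90, followed by SNHG28 (0.63, not called) and SNHG3 (0.62), and no RQ point is filled.

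In unstressed cells RQ differed from WT in 0 of 26 members by edgeR (1.03% of all genes called, 0.657% higher and 0.375% lower, 8 members at an unadjusted p under 0.05, 1 by DESeq2). The count rose to 4 without WT control library 2, 1 without Y396E arsenite library 1 and 2 without Y396E arsenite library 3. In these fits 1.87%, 1.09% and 2.91% of all genes were called. In S181E cells SNHG7 was higher and 8 members were lower (SNHG6, SNHG11, SNHG12, SNHG19, SNHG32, EPB41L4A-AS1, GAS5 and ZFAS1), where 27.0% of all genes were called (13.2% higher and 13.8% lower). In Y396E cells SNHG7 and SNHG30 were higher and SNHG6, SNHG12 and SNHG19 lower, where 24.9% of all genes were called (12.1% higher and 12.8% lower). GAS5 was at 328, 343 and 332 CPM in S181E control libraries, below every WT control library, a log2 difference of -0.37 ± 0.07 (edgeR adjusted p = 1.77e-04). Without WT control library 2 the counts fell to 3 in S181E and 2 in Y396E, where 21.6% and 19.5% of all genes were called. SNHG6, SNHG7 and GAS5 were still called in S181E and SNHG6 and SNHG7 in Y396E. With library totals alone the calls turned to 3 higher (SNHG7, SNHG26 and SNHG30) and 1 lower (SNHG6) in both mutants, where 41.5% and 36.8% of all genes were called. The rise of SNHG7 lay just past the fold of 1.2 and was lost in S181E without WT control library 1 or 3 or S181E control library 2 or 3 (0.24 to 0.26), and in Y396E without WT control library 3 or Y396E control library 1 (both 0.24).

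SNHG6 was lower in the phosphomimetic mutants under both treatments. Its level was 351, 401 and 347 CPM in WT control libraries, 229, 238 and 232 CPM in S181E and 253, 232 and 221 CPM in Y396E. After arsenite it was 220, 227 and 223 CPM in WT, 163, 166 and 160 CPM in S181E and 174, 175 and 171 CPM in Y396E. No mutant library overlapped the WT libraries of its treatment. The log2 differences in control cells were -0.65 ± 0.05 (edgeR adjusted p = 1.53e-09) and -0.64 ± 0.05 (edgeR adjusted p = 2.41e-09). SNHG6 lies on chromosome 8 (66920561 to 66925597), and the 11 other tested genes within 2 Mb of it had a median log2 difference of -0.62 in S181E and -0.69 in Y396E control cells, against -0.05 in RQ. The 434 other tested genes of that chromosome had medians of -0.42 and -0.43, and the part of the chromosome in the level of SNHG6 was not tested. SNHG6 fell with arsenite by 0.71 in WT and by 0.44 in Y396E on the log2 scale, a difference of 0.27 ± 0.07 (edgeR adjusted p = 0.0159) that was lost without WT control library 2 (0.20), WT arsenite library 1 (0.26) or Y396E control library 2 or 3 (0.24 and 0.23), and with library totals alone (0.11).

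After arsenite RQ differed from WT in 0 of 26 members by edgeR (0.993% of all genes called, 0.844% higher and 0.149% lower, 2 members at an unadjusted p under 0.05, 0 by DESeq2). S181E had SNHG7 and SNHG30 higher and SNHG6 lower, where 12.7% of all genes were called (6.02% higher and 6.64% lower). This count was 1 without WT arsenite library 1 or Y396E control library 2 and 5 without Y396E arsenite library 3. In these fits 10.6%, 12.3% and 17.6% of all genes were called. The call of SNHG7 was also lost without S181E arsenite library 1 (0.24). Y396E had SNHG3, SNHG9, SNHG11, SNHG12, SNHG28 and SNHG30 higher and SNHG6 lower, where 21.0% of all genes were called (10.3% higher and 10.8% lower). SNHG28 was at 1.78, 1.39 and 4.04 CPM in Y396E against 1.28, 1.19 and 1.15 CPM in WT, with the highest value in the library that stood apart. Without that library the log2 difference was 0.38 for SNHG28 and 0.19 for SNHG11, and neither was called. Leaving out WT arsenite library 1 also ended both calls (1.04 and 0.38), and WT arsenite library 2 or 3 that of SNHG28 (0.99 and 0.96). The call of SNHG30 in S181E was lost on leaving out any of 16 of the 24 libraries, at 0.27 to 0.43. SNHG7, the host of SNORA17A and SNORA17B, was at 132, 139 and 141 CPM in S181E and 143, 134 and 136 CPM in Y396E control libraries, against 113, 119 and 110 CPM in WT.

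The 3 members set by name beside the numbered ones behaved differently from each other across populations. EPB41L4A-AS1 fell to 39.7, 42.3 and 45.2 CPM in RQ, 34.9, 33.5 and 32.5 CPM in S181E and 33.1, 36.6 and 31.3 CPM in Y396E, from 84.1, 87.6 and 81.5, from 60.3, 62.4 and 64.3 and from 73.6, 67.4 and 65.3 CPM. Its log2 change lay between -1.03 and -0.89 in the 4 populations. ZFAS1 went from 150, 159 and 138 CPM to 103, 106 and 104 CPM in RQ and from 123, 118 and 107 CPM to 96.0, 97.6 and 68.6 CPM in Y396E, and both falls were called. In S181E it went from 110, 105 and 105 CPM to 97.8, 95.6 and 91.4 CPM, a log2 change of -0.17 ± 0.09 that was not called. GAS5 was at 486, 546 and 462 CPM and then at 417, 433 and 433 CPM in RQ, and at 391, 368 and 342 CPM and then at 389, 408 and 368 CPM in Y396E. Its log2 change was -0.22 in RQ, 0.13 in S181E and 0.08 in Y396E, none of them called, and its differences from WT were -0.06, 0.28 and 0.24, also not called. The difference was called in S181E without WT control library 1 or 3, RQ control library 2 or Y396E arsenite library 3 (0.28 to 0.34), and in Y396E without WT control library 1 (0.29) or Y396E arsenite library 3 (0.28).

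For SNHG26 and SNHG10, the members with the largest falls in WT, no difference of responses was called with all libraries. SNHG26 was at 15.8, 15.5 and 16.1 CPM in RQ, 18.6, 18.6 and 19.6 CPM in S181E and 20.9, 18.8 and 19.0 CPM in Y396E control libraries. After arsenite it was at 4.24, 3.55 and 3.92, 3.85, 5.77 and 5.45, and 4.24, 5.20 and 5.34 CPM, and its differences from WT were -0.08, 0.03 and -0.04, with 95% intervals no wider than -0.48 to 0.43. SNHG10 fell to 2.63, 2.79 and 2.38 CPM in RQ, 3.80, 3.11 and 3.67 CPM in S181E and 4.73, 3.43 and 1.53 CPM in Y396E. Its intervals were wide, from -0.42 to 0.91 in Y396E, which includes differences of the size seen for SNHG12. Without the third Y396E arsenite library, where SNHG10 was at 1.53 CPM, its difference in Y396E was 0.58 and was called (edgeR adjusted p = 0.0374). SNHG17 rose to 69.4, 71.5 and 72.1 CPM in RQ, 79.7, 82.6 and 78.9 CPM in S181E and 86.9, 82.9 and 74.5 CPM in Y396E, and SNHG15 to 94.6, 102 and 92.7 CPM in S181E and 102, 98.2 and 108 CPM in Y396E. Neither was called as different from WT.

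Other gene groups give the frame for these values. The 923 tested long non-coding RNA genes that are not members had 44 rises and 356 falls in WT cells (43.3% called) and a median log2 change of -0.48, with ENSG00000289865 as the largest rise (5.44) and ENSG00000274460 as the largest fall (-3.97). Of 80 tested cytosolic ribosomal protein genes, 76 fell in WT and as many in RQ, 69 fell in each of the phosphomimetic mutants, and none rose. Their median was -0.67 for WT and RQ, -0.46 for S181E and -0.44 for Y396E. The 155 tested protein-coding snoRNA hosts other than ribosomal protein genes went the other way, with 76 rises, 32 falls and a median of 0.29 in WT. Over all 183 tested protein-coding hosts the largest rise was that of ZCCHC8 (2.43) and the largest fall that of RC3H2 (-1.24). The median of the members in WT (-0.68) stood beside that of the ribosomal protein genes and below those of the other lists, as a description with no test.

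The proteins that build and assemble the snoRNA particles showed both directions. Of 17 tested genes, 8 rose and 4 fell in WT cells. NOP58, a core protein of box C/D particles, rose most, from 83.6 ± 7.04 to 312 ± 0.997 CPM (SD, n = 3), and NOP10, a core protein of box H/ACA particles, fell most, from 188 ± 20.9 to 97.7 ± 1.26 CPM. The responses of S181E and Y396E differed from WT for NOP58 by -0.44 and -0.45, for NOLC1, a nucleolar chaperone of the particles, by -0.39 and -0.40, and for NOP10 by 0.36 and 0.34. RUVBL1 was called in S181E alone (-0.27), and SHQ1, NAF1, NUFIP1, DKC1 (-0.47 to -0.39) and SNU13 (0.27) in Y396E alone. That makes 4 of 17 genes in S181E (23.5%) and 8 in Y396E (47.1%), where 10.2% and 14.5% of all genes were called. Whether the mutants differ from each other in these genes was not tested.

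Among 19 tested factors of nonsense-mediated decay, the exon junction complex and translation termination, 13 rose and 3 fell in WT cells, with a median of 0.59. NBAS rose most, from 7.82 ± 0.0134 to 23.8 ± 2.11 CPM, and RBM8A, a core exon junction protein, fell most, from 66.7 ± 2.72 to 45.7 ± 1.93 CPM. ETF1, the release factor, differed by -0.32 in S181E and -0.35 in Y396E and CASC3 by -0.29 and -0.36. EIF4A3 was called in S181E alone (-0.30) and UPF2 in Y396E alone (-0.49). That makes 3 of 19 genes in each mutant (15.8%), where 10.2% and 14.5% of all genes were called. The mutants were not compared with each other. Of 10 mRNAs that are known as targets of the decay pathway, 5 rose and 2 fell in WT cells. PPP1R15A, a stress-induced phosphatase subunit, rose most, from 133 ± 6.58 to 626 ± 13.8 CPM, and UPP1 fell most, from 12.3 ± 0.885 to 9.19 ± 0.594 CPM. TBL2 differed by 0.45 in S181E and 0.43 in Y396E, HNRNPL by -0.30 and -0.31, and ATF4 by 0.40 in RQ. These calls were 2 of 10 in S181E and in Y396E and 1 of 10 in RQ, where 0.109% of all genes were called. The part of decay in these changes was not tested.

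In the parental cells, which had 1 library per treatment and no replicate check, 20 of the 26 members were lower after arsenite and 6 higher. Their median log2 ratio was -0.51. The same values over all genes were not computed for the parental libraries, so these numbers stand without a background. SNHG10, SNHG26 and SNHG3 were again lowest, at -2.01, -1.97 and -1.59. SNHG12 went from 44.01 to 85.9 CPM, a log2 ratio of 0.97. GAS5 went from 257 to 334 CPM, a log2 ratio of 0.38, and both values were below those of the WT libraries of the same treatment.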

How the data were processed

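The deposited files hold raw gene counts, 1 file per library. Per the labels and the methods, the authors selected polyadenylated RNA, made directional libraries, trimmed and aligned reads to hg38 with STAR 2.7.11b and the GENCODE 46 annotation, and counted exons with featureCounts 2.0.6 on the reverse strand (setting 2), without reads shared between genes or multiply mapped. Dishes were grown independently. Symbols came from GENCODE 44 by gene identifier (99.1% of 63086 matched).

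Here all gene types of the 24 transduced libraries were fitted together in edgeR 4.0.16 (R 4.3.3; 1 mean per group, TMM scaling, quasi-likelihood test), keeping genes over 1 CPM in at least 12 libraries. A gene was called at a Benjamini-Hochberg adjusted p under 0.05 and a fold above 1.2. Differences of responses were contrasts of the same fit. Normalised CPM used TMM library sizes, RPKM the exon length in the files. The median SE was 0.09 for arsenite changes and 0.13 for differences of responses (log2). The code was tested on simulated counts. Alternatives were run with DESeq2 1.42.0, other scalings, filters and thresholds, and leaving out each library.

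Members and gene lists were chosen with earlier results of these data known. Values per library are given for GAS5, ZFAS1, EPB41L4A-AS1, the 3 largest rises and falls in WT and members called in a difference of responses. SNHG7, SNHG28 and SNHG29 were added after their values were seen. Start sequences are from RefSeq and GENCODE 44 (GRCh38). From comparison lists, the largest rise and fall and the genes called in a difference of responses are named. The largest fall in 1 list is not reported here.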

Additional observations from a re-analysis of the deposited data

Results flagged for a closer look

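The arsenite response of 10 pairs of member and mutant differed from that of WT by the interaction test (edgeR quasi-likelihood, adjusted over all genes), each as mutant minus WT on the log2 scale. In S181E these were SNHG3 (0.50), SNHG5 (0.33) and SNHG12 (0.66). In Y396E these were SNHG3 (0.62), SNHG5 (0.33), SNHG6 (0.27), SNHG9 (0.90), SNHG11 (0.71), SNHG12 (0.76) and SNHG20 (0.82). All were positive, and both comparisons share the WT libraries.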

How the results depend on the processing

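No member reversed its direction under any alternative while called in either fit. Among single members, 11341 comparisons with an alternative kept their call or its absence, 179 gained and 219 lost it. Counts of called members that moved by over 1.5 times were these. At a fold above 2, arsenite calls numbered 10 for WT, 9 for RQ, 6 for S181E and 8 for Y396E, and 0 in the response and population comparisons of S181E and Y396E. With library totals alone, S181E had 1 response call and 4 in control (3 higher, 1 lower), and Y396E had 4 response calls. With only the groups compared in the fit, there were 9 response calls in S181E and 3 in Y396E, and 4 calls for Y396E against WT after arsenite. RQ in control had 1 call with DESeq2, with the filter at 10 CPM and with no filter. Y396E in control had 9 without a fold threshold. After arsenite, the filter at 10 CPM gave 1 call in S181E and 4 in Y396E, and TMM from protein-coding genes 1 in S181E. Leaving out single libraries gave 1 to 10 response calls in S181E, 4 to 12 in Y396E, 0 to 4 for RQ in control, 3 to 12 for S181E in control, 2 to 7 for Y396E in control and 1 to 5 for S181E after arsenite. The share of all genes called also changed between settings and is not given for these counts. The counts alone therefore do not show how the members compare with other genes. The causes were not tested. Same-numbered libraries were not taken as pairs, since the correlations of their deviations ran from -0.04 to 0.28 with 9 of 84 over 0.1, though 22 of 24 libraries correlated best with their own number. WT and RQ control libraries were over 0.1 in all 3 pairs (0.13, 0.28 and 0.20), and RQ in control had 0 calls with the block too. The replicate block gave 5 response calls in S181E, adding SNHG19 (0.52) and GAS5 (0.28), and moved no other count by over 1.5 times. Low members have wide errors, with an SE of 0.53 for the response difference of SNHG28 in S181E.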
